A study of Mus musculus with 6 samples.

Results

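The miR-132 and miR-212 cluster consists of 2 miRNA hairpins that lie next to each other in the genome and give 4 mature products, miR-132-3p, miR-132-5p, miR-212-3p and miR-212-5p. They were read in libraries of extracellular vesicles, the membrane-bound particles that cells release, isolated from mouse brain tissue. The members were chosen by name, as 4 of the 1926 miRNAs listed in the authors' deposited RPM table, of which 775 were detected in at least 1 library. All 4 were detected in all 6 libraries. By their labels, 3 libraries are of vesicles from mice that had been through status epilepticus (SE), which is a seizure that does not end on its own, and 3 are of vesicles from controls (CON). A time of 24 hr appears in the title of the series. The comparison addresses which vesicle miRNAs differ after status epilepticus. How the seizures were induced, and the strain, sex and age of the mice, are not given in the sources used here. The labels do not say whether the replicates came from separate animals, and the p-values therefore reflect no more than the spread among these libraries, which could be technical.

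Transcription of the cluster is induced by the factor CREB when neurons are active or receive neurotrophins such as BDNF, and one primary transcript carries both hairpins. The 3p arm of each hairpin is the guide strand, the arm that is mostly retained in the silencing complex, and the 5p arm is its partner. miR-132-3p is known in neurons for promoting dendrite growth, in part by lowering the RhoGAP p250GAP. miR-212-3p shares its targets to a large extent because both guides have the same seed, the stretch at the 5′ end that pairs with messenger RNAs.

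The mature sequences are shown because the shared seed and the few differences behind it decide how far the products can be told apart as targeting molecules and as reads. All 4 matched an entry in RefSeq on build GRCm38.p6, and the seed, bases 2 to 8, is in capitals.
miR-132-3p: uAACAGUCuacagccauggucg
miR-212-3p: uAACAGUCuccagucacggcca
miR-132-5p: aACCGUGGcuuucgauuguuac
miR-212-5p: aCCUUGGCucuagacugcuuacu
The guides have 22 bases each and are identical at 17 of them, including the 9 at the 5′ end. Counted from 1 at the 5′ end, with the base of miR-132-3p first and that of miR-212-3p last, they differ by A10C, C14U, U17C, U20C and G22A. Among the 1738 mature miRNAs of the RefSeq table, the seed AACAGUC occurs in these guides and in no other entry. A message site that pairs with it reads GACUGUU. The 5p arms have the seeds ACCGUGG and CCUUGGC, which no other entry of the table holds, so each 5p arm forms a seed group of its own.

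Both hairpins lie on the plus strand of mouse chromosome 11. Mir212 is at chr11:75173388-75173478 and Mir132 at chr11:75173682-75173747 (GRCm38.p6), with 203 bases between them. In the GENCODE annotation of the same build they fall in intron 1 of 1700016P03Rik, a noncoding transcript with 3 exons, and between the protein-coding genes Hic1 and Ovca2. These coordinates come from the reference, whereas the submitters' processing notes name mm9. In the hairpins the mature arms are in capitals, the 5p arm first.
Mir212: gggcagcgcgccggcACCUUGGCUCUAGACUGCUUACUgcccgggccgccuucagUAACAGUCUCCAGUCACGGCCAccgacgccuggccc
Mir132: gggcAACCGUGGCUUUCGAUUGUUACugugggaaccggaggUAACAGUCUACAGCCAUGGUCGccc

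Levels are given as RPM, the reads of a product relative to all miRNA reads of its library, brought to the same total everywhere. The libraries held 6016533 to 10845434 miRNA reads in SE and 5482407 to 6504884 in CON vesicles. The names in the authors' deposited RPM table follow the SE columns, while the CON columns are sorted on their own, so each CON row was first put under its name through the base mean in the authors' deposited table of fold changes. Each of the 4 members matched exactly 1 CON row. The relative difference of that match was at most 4.17e-10. For miR-132-3p the CON values stood at row 82 and the name at row 96 of the table.

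Both guide strands were lower in SE than in CON vesicles in every library, but neither difference passed the test across all miRNAs. miR-132-3p averaged 163 RPM ± 16.8 in SE and 233 RPM ± 31.9 in CON vesicles (SD, n = 3 each), which is 29.9% lower in SE. miR-212-3p averaged 24.2 RPM ± 2.64 in SE and 40.7 RPM ± 6.46 in CON vesicles (SD, n = 3 each), which is 40.6% lower in SE. The partner arm miR-132-5p had nearly equal means, and miR-212-5p, the rarest product, lay at a few RPM in every library. Fewer vesicles from the cells that make these miRNAs, fewer copies per vesicle and more reads of other miRNAs cannot be told apart in such libraries. None of these was tested.

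miR-132-3p had 182, 160 and 149 RPM in SE replicates 1, 2 and 3, and 269, 208 and 222 RPM in CON replicates 1, 2 and 3. These values rest on 962 to 1969 reads per SE library and 1139 to 1504 per CON library. The groups did not overlap: the highest SE value, 182 RPM, lay below the lowest CON value, 208 RPM. By its mean level miR-132-3p was the 96th most abundant of 704 detected miRNAs in SE and the 82nd of 687 in CON vesicles.

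miR-212-3p had 26.3, 25.1 and 21.2 RPM in SE replicates 1, 2 and 3, and 45.4, 43.4 and 33.4 RPM in CON replicates 1, 2 and 3. Reads numbered 142 to 285 per SE library and 217 to 254 per CON library. Again all SE values were below all CON values, and the library closest to the SE range was CON replicate 3. Its mean ranked 215th in SE and 178th in CON vesicles.

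**Figure D1:**
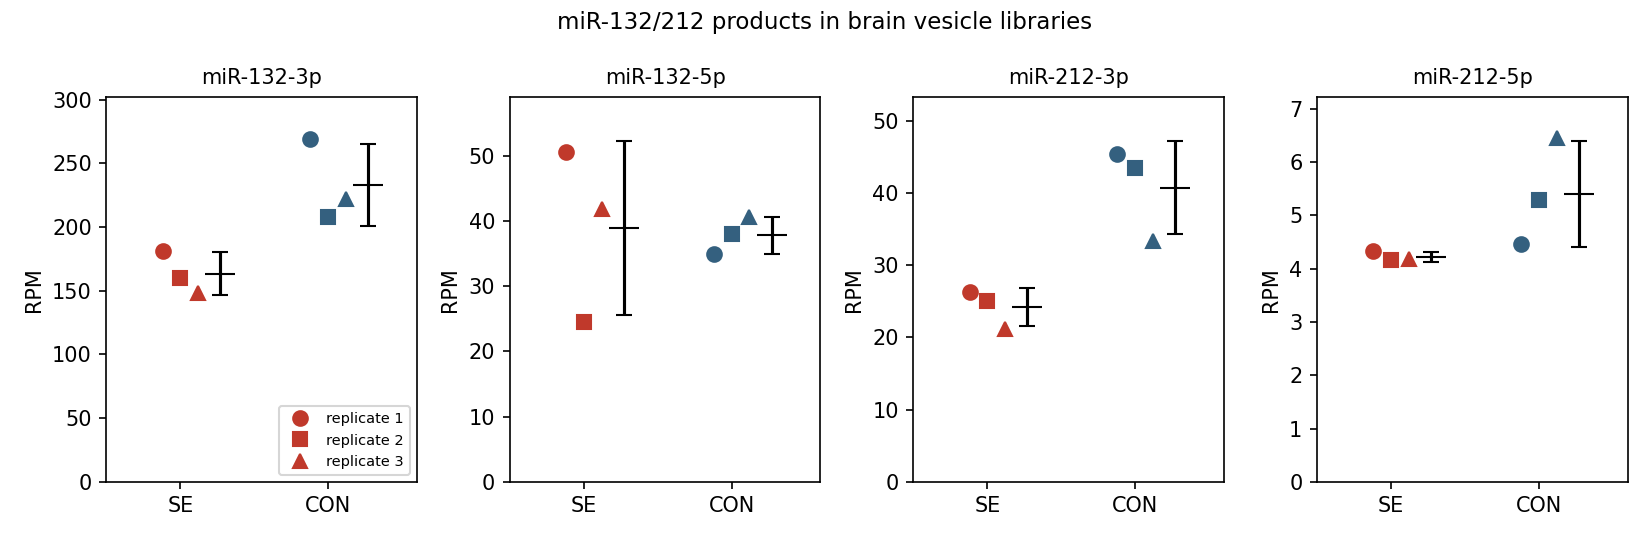
RPM of the 4 products in each library, SE left of CON, with 1 marker per replicate and the mean ± SD beside it. The SE and CON values of miR-132-3p and miR-212-3p do not overlap, those of miR-132-5p do, and those of miR-212-5p lie close together at 4.16 to 6.46 RPM.

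Differences were tested by limma-trend on log2(RPM + 1), where low miRNAs show smaller changes than on the RPM scale, for the 290 miRNAs that averaged 10 RPM or more. 3 of the 4 members passed this filter and miR-212-5p did not. The log2 fold change, SE over CON, of miR-132-3p was -0.51 with a standard error of 0.20, a 95% confidence interval of -0.93 to -0.08 and a limma adjusted p of 0.393. For miR-212-3p it was -0.72 with a standard error of 0.23, an interval of -1.21 to -0.24 and a limma adjusted p of 0.231. 0 of the 3 tested members passed an adjusted p under 0.05 by limma-trend, and limma-voom on reads recovered from the RPM values also gave 0; over all tested miRNAs, 1.03% passed. At an unadjusted p under 0.05 there were 2 members, both guides, beside 7.59% of all tested miRNAs that were lower in SE at that level. The SE values lay wholly below the CON values for the same 2 of 3 tested members and for 13.4% of the tested miRNAs. Across the 290 the log2 fold changes had a median of -0.07. Median-of-ratios scaling brought that median to 0.03, and on this scaling miR-132-3p had -0.40 and miR-212-3p -0.62.

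Among all tested miRNAs, miR-212-3p had the 4th lowest log2 fold change and miR-132-3p the 17th lowest. Below miR-212-3p lay miR-155-5p, miR-122-5p and miR-21a-5p.

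**Figure D2:**
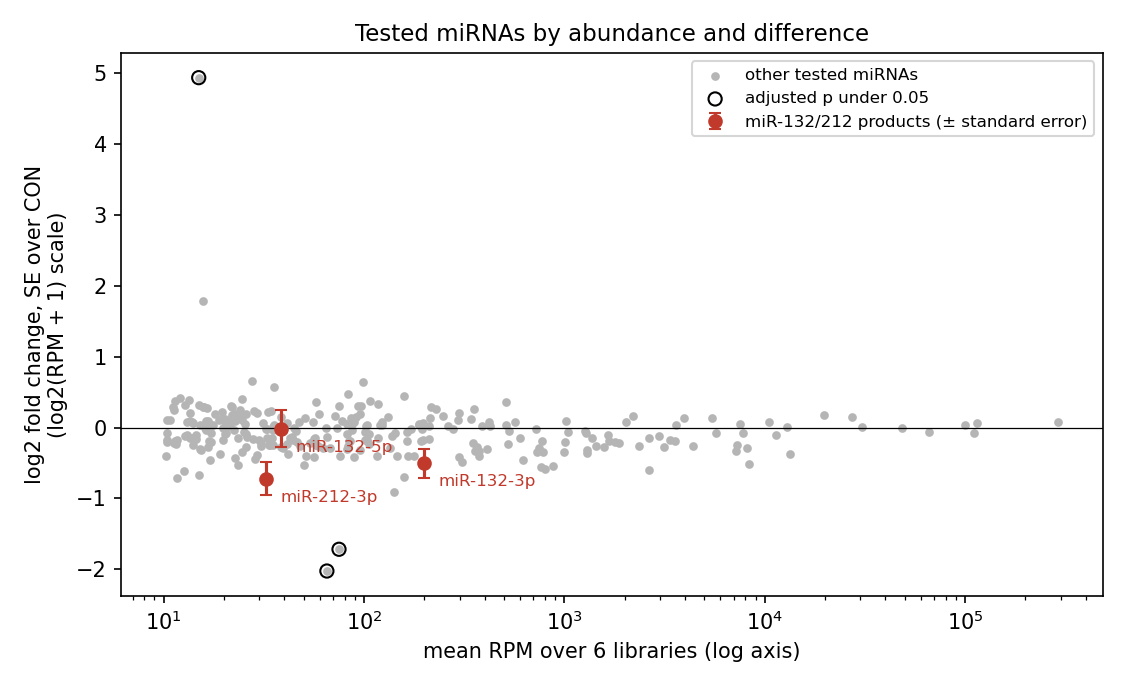
Log2 fold change, SE over CON, against the mean RPM over the 6 libraries (log axis) for the 290 tested miRNAs. The guides miR-132-3p (-0.51) and miR-212-3p (-0.72) lie at the lower edge of the cloud and miR-132-5p (-0.02) near 0, and rings mark the 3 miRNAs with an adjusted p under 0.05.

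miR-132-5p, the partner arm of miR-132-3p, had 50.6, 24.4 and 41.9 RPM in SE replicates 1, 2 and 3, and 34.9, 37.9 and 40.6 RPM in CON replicates 1, 2 and 3. The SE libraries lay on both sides of the CON libraries, with SE replicate 1 above and SE replicate 2 below every CON value. The mean was 39.0 RPM ± 13.3 in SE and 37.8 RPM ± 2.87 in CON vesicles (SD, n = 3 each), from 147 to 549 reads per SE library and 195 to 264 per CON library. limma-trend gave a log2 fold change of -0.02 (standard error 0.26, 95% interval -0.56 to 0.53) and an adjusted p of 0.979, and the sign turned to 0.09 with median-of-ratios scaling and to 0.07 with quantile normalization. Without SE replicate 2 the value was 0.28, and without SE replicate 1 it was -0.23. The interval leaves room for a difference as large as that of miR-132-3p in the same direction.

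miR-212-5p, the partner arm of miR-212-3p, had 4.33, 4.16 and 4.19 RPM in SE replicates 1, 2 and 3, and 4.47, 5.29 and 6.46 RPM in CON replicates 1, 2 and 3. Behind these stand only 25 to 47 reads per SE library and 25 to 42 per CON library. The SE values lay below the CON values by a narrow margin, 4.33 against 4.47 RPM at the nearest pair, and they overlapped once the reads were divided by the size factors of the authors' table, with 31.3 in SE replicate 3 against 27.3 in CON replicate 1. The means were 4.22 RPM ± 0.0955 in SE and 5.41 RPM ± 0.999 in CON vesicles (SD, n = 3 each). miR-212-5p lay under the filter of the main test. In the fit without a filter, over 775 miRNAs, it had a log2 fold change of -0.28 (standard error 0.29) and a limma adjusted p of 0.891.

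Reads of the same libraries are treated as counts in the authors' deposited table of fold changes and scaled by size factors, which were recovered here through its base means, with 1.77, 0.863 and 0.895 in the SE libraries and 0.916, 0.821 and 1.03 in the CON libraries, each in order of replicate number. On that scale miR-132-3p stood at 1110, 1115 and 1111 normalized reads in the SE libraries and at 1641, 1387 and 1399 in the CON libraries. The SE libraries were almost level, with an SD of 2.47 normalized reads, smaller than the 25.0 to 35.9 that counting error alone gives a single SE library. So small a spread depends on the scaling, since in RPM the same libraries had an SD of 16.8 around a mean of 163. miR-212-3p stood at 161, 175 and 159 normalized reads in the SE libraries and at 277, 290 and 210 in the CON libraries. Both guides therefore kept separate groups under this scaling as well.

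A positive fold change in the authors' deposited table stands for a higher level in CON, since the log2 ratio of CON over SE normalized reads was 0.41 for miR-132-3p, 0.65 for miR-212-3p, 0.25 for miR-212-5p and -0.14 for miR-132-5p. The authors' deposited table lists 0.41 (standard error 0.11) for miR-132-3p, with an adjusted p of 0.0333, and this member is 1 of 8 miRNAs it calls at an adjusted p under 0.05, or 1.04% of the 772 with a p-value. It lists 0.65 (standard error 0.22) for miR-212-3p, the 9th smallest p in the authors' deposited table, with an adjusted p of 0.218. miR-212-5p has 0.26 (standard error 0.42) and miR-132-5p -0.14 (standard error 0.31) in the authors' deposited table, each with an adjusted p of 0.975. So miR-132-3p is called in the authors' deposited table and not by limma-trend, while both give the same direction. The CON reads were placed with base means of the authors' deposited table. The SE size factors were first sought among miRNAs with strongly negative fold changes in it, taken as having no CON reads. The agreement in direction is therefore not independent.

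The products of the cluster were also set against each other within each library, as ratios of RPM that do not depend on the library total. The log2 arm ratios below were tested on RPM + 1, which does depend on it. miR-132-3p exceeded miR-212-3p by 6.91-, 6.37- and 7.0-fold in SE replicates 1, 2 and 3, and by 5.92-, 4.79- and 6.66-fold in CON replicates 1, 2 and 3. The ranges overlapped, with CON replicate 3 inside the SE range. The log2 ratio was 0.24 higher in SE, and an exact two-sided permutation test over 20 splits gave p = 0.2, where the smallest p that the design allows is 0.1. Without CON replicate 2 the difference was 0.11.

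Within the miR-132 hairpin, the 3p arm exceeded the 5p arm by 3.59-, 6.54- and 3.55-fold in SE replicates 1, 2 and 3, and by 7.71-, 5.48- and 5.47-fold in CON replicates 1, 2 and 3. SE replicates 1 and 3 lay below every CON library and SE replicate 2 among them. As a share of the hairpin's reads, the 3p arm made up 78.2% (95% exact binomial interval 76.5 to 79.8%), 86.7% (84.6 to 88.7%) and 78.0% (75.7 to 80.3%) in SE replicates 1, 2 and 3. In CON replicates 1, 2 and 3 it made up 88.5% (86.9 to 90.0%), 84.6% (82.5 to 86.5%) and 84.5% (82.8 to 86.2%). These intervals cover counting error only. That of SE replicate 2 does not meet those of SE replicates 1 and 3. Likewise, that of CON replicate 1 does not meet those of CON replicates 2 and 3. Within each group the libraries therefore differed by more than counting error. The difference of the log2 arm ratio, SE minus CON, was -0.49, with p = 0.3 in the exact two-sided permutation test, and without SE replicate 2 it was -0.77.

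Within the miR-212 hairpin, the 3p arm exceeded the 5p arm by 6.06-, 6.04- and 5.07-fold in SE replicates 1, 2 and 3, and by 10.2-, 8.21- and 5.17-fold in CON replicates 1, 2 and 3. All 3 SE ratios lay below those of CON replicates 1 and 2, and CON replicate 3 fell inside the SE range. The 3p arm made up 83.5% to 85.8% of the hairpin's reads in SE libraries and 83.8% to 91.0% in CON libraries. The difference of the log2 ratio was -0.44, with p = 0.3 in the exact two-sided permutation test. It was -0.25 without CON replicate 1 and -0.69 without CON replicate 3. With pseudocounts of 0.5 and 5 RPM in place of 1 RPM it was -0.42 and -0.47.

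**Figure D3:**
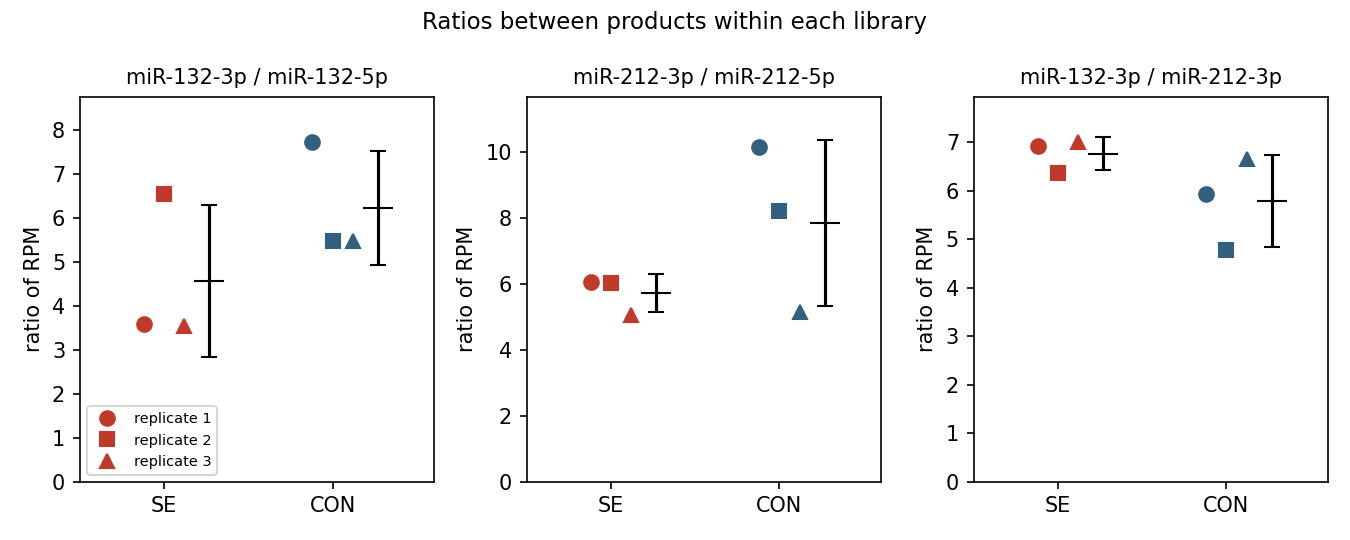
Ratios of RPM between products within each library, SE left of CON, with 1 marker per replicate and the mean ± SD beside it. In each panel SE and CON values overlap: the miR-132 arm ratio is 3.55 to 6.54 in SE and 5.47 to 7.71 in CON libraries, and the ratio of the guides is 6.37 to 7.0 in SE and 4.79 to 6.66 in CON libraries.

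Summed over the 4 products, the cluster held 263, 214 and 216 RPM in SE replicates 1, 2 and 3, and 354, 294 and 303 RPM in CON replicates 1, 2 and 3. The groups did not overlap, and the sum averaged 231 RPM ± 27.8 in SE and 317 RPM ± 32.1 in CON vesicles (SD, n = 3 each). The difference of the log2 sum was -0.46, with p = 0.1 in the exact two-sided permutation test, the smallest p that 3 libraries against 3 can give. Adjusted by Benjamini-Hochberg over the 4 permutation tests of sums and ratios, p was 0.3 for each. miR-132-3p made up 70.9% ± 3.41 of the sum in SE and 73.3% ± 2.73 in CON vesicles (SD, n = 3 each). The pair of guides with the shared seed together held 208, 185 and 170 RPM in SE replicates 1, 2 and 3, and 314, 251 and 256 RPM in CON replicates 1, 2 and 3.

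The miRNAs whose values ran most like those of the guides over the 6 libraries were found by the root mean square difference of log2(RPM + 1) values, each centred on its own mean. For miR-132-3p these were miR-140-3p (0.11), miR-28a-3p (0.11), miR-30e-3p (0.12), miR-873a-5p (0.12) and miR-431-5p (0.13), all in log2 units. Their log2 fold changes, SE over CON, were -0.30 to -0.40, and none had a limma adjusted p under 0.528. For miR-212-3p they were miR-429-3p (0.13), miR-132-3p itself (0.18), miR-431-5p (0.18), miR-122-5p, the main miRNA of hepatocytes (0.18), and miR-1843b-3p (0.22). Of the 289 other tested miRNAs, miR-132-3p was thus the 2nd closest to miR-212-3p, while miR-212-3p was the 28th closest to miR-132-3p. The partner arm miR-132-5p stood far from both, at rank 221 from miR-132-3p and rank 228 from miR-212-3p. This measure includes the difference between SE and CON libraries. Fold changes near that of the guide, and the far ranks of miR-132-5p, thus follow in part from the measure and are not separate results.

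A list of 17 other miRNAs linked to neuronal activity or seizures was set beside the cluster. All 17 were detected, 14 were tested and 0 passed by limma-trend, and 0 are called in the authors' deposited table. At an unadjusted p under 0.05 there was 1 of the 14, beside 27 of all 290 tested miRNAs. This was miR-335-5p, with 2069, 2128 and 2007 RPM in SE replicates 1, 2 and 3, and 3206, 2309 and 4120 RPM in CON replicates 1, 2 and 3. It was the only one of the 14 whose SE values lay wholly below the CON values, beside 13.4% of all tested miRNAs. Its log2 fold change was -0.60 (standard error 0.19), with a limma adjusted p of 0.231. The next by p were miR-128-3p, a neuronal miRNA that dampens excitability (-0.33), miR-485-5p (0.45), miR-9-3p (-0.26), miR-138-5p, which acts on dendritic spines (0.14), and miR-137-3p (-0.15). Their limma adjusted p ran from 0.570 to 0.871. Over the 14, 8 log2 fold changes were positive and 6 negative, and their median was 0.02, beside -0.07 over all tested miRNAs. The dendritic miR-134-5p, another activity-linked miRNA of the list, had 0.08.

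Markers of cell types were summed per library to describe the vesicle preparations. The 8 neuronal markers, led by miR-9-5p, miR-128-3p and miR-138-5p, were all present and summed to 22868 to 27583 RPM in SE and 25334 to 29879 RPM in CON libraries. The 5 miRNAs listed for astrocytes were miR-29a-3p, miR-29c-3p, miR-143-3p, miR-24-3p and miR-23a-3p, the last merged with miR-23b-3p. They summed to 11973 to 12673 RPM in SE and 13459 to 17946 RPM in CON libraries. Whether these 5 are particular to astrocytes was not tested. The 4 myeloid markers summed to 63.2 to 83.1 RPM in SE and 157 to 171 RPM in CON libraries, and the 3 oligodendrocyte ones to 253 to 332 RPM in SE and 310 to 452 RPM in CON libraries. The 4 red cell markers summed to 7068 to 7609 RPM in SE and 7983 to 9497 RPM in CON libraries, nearly all of it the widely expressed miR-16-5p. Of the other red cell markers, miR-451a was at 0 in all SE libraries and in CON replicates 1 and 2, and miR-144-3p was at 0 in all 6 libraries. The remaining marker, miR-486a-5p, read as a merged entry with miR-486b-5p, was present in all 6 libraries. It averaged 24.8 RPM in SE and 25.4 RPM in CON vesicles. The astrocyte, myeloid and red cell sums were lower in all SE libraries than in any CON library, as were both guides, and the neuronal and oligodendrocyte sums overlapped. The myeloid separation came from miR-155-5p, since the other 3 myeloid markers summed to 41.9 to 56.8 RPM in SE and 45.4 to 71.9 RPM in CON libraries. Likewise, without miR-29a-3p and miR-29c-3p the other 3 miRNAs listed for astrocytes summed to 4720 to 5222 RPM in SE and 5100 to 5599 RPM in CON libraries, which overlap. Both of these partial sums were chosen after the values were seen. The part of these sums in the levels of the guides was not tested.

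**Figure D4:**
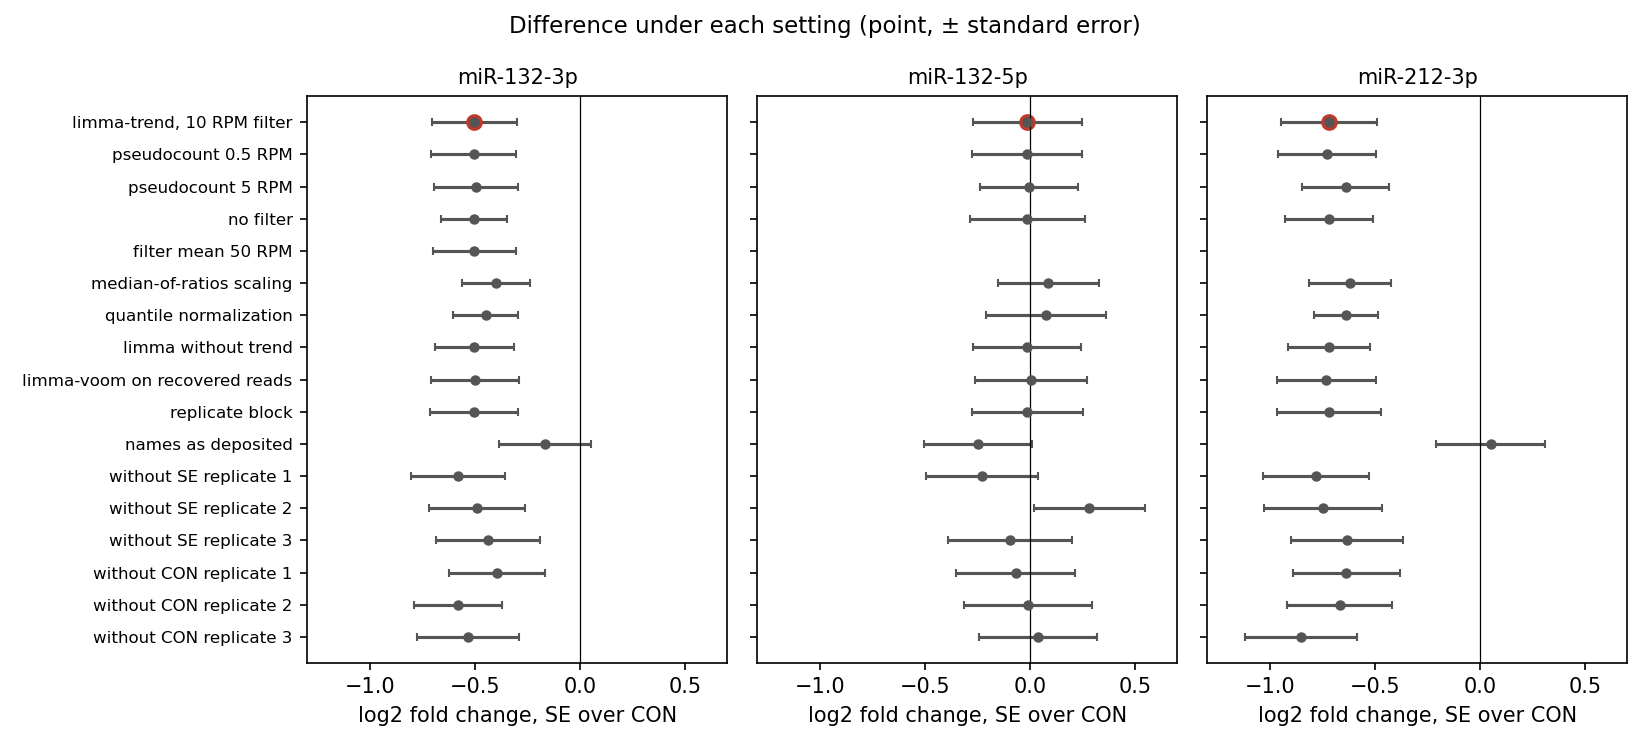
Log2 fold change, SE over CON, of the 3 tested members (point, ± standard error) under each setting, with the reported fit in red. miR-132-3p and miR-212-3p stay below 0 in every setting except that miR-212-3p is at 0.05 with the CON names as deposited, and miR-132-5p lies on both sides of 0, from -0.25 to 0.28.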

How the data were processed

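The authors deposited RPM values per miRNA and a separate table which, per the file headers, gives a base mean (a signal of normalized counts), a log2 fold change, a Wald score, p-values and adjusted p-values. Per the labels' protocols, RNA came from a column kit with DNase, and the QIAseq miRNA kit was used for the libraries. The submitters' processing notes name mm9 and DESeq2. The aligner, counter and use of molecular identifiers are not given in the sources used here.

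RPM values were whole multiples, within 0.01 reads, of 1 read per column, with the lowest value taken as 2 reads. All 687 CON rows above 0 were put under their names through base means (relative tolerance 1e-05, largest difference 3.32e-09).

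limma 3.58.1 in R 4.3.3 was fitted with trend, with group as factor, and p-values were adjusted by Benjamini-Hochberg. It was run on simulated counts with fold changes larger than those of the guides, so that check does not cover changes of their size. Ratios and sums were tested in Python 3.11.15 with scipy 1.17.1. Alternatives were pseudocounts of 0.5 and 5 RPM, filters, scalings, limma without trend, limma-voom, the replicate block, CON names as deposited and each library left out. Directions follow the column labels. Named miRNAs are the members, the 5 most like each guide, up to 6 of the activity list by smallest p, and cell type markers. Outside this rule, miR-134-5p of the activity list and the miRNAs below miR-212-3p in log2 fold change were also named. Members and lists were chosen with earlier results of these data known.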

Additional observations from a re-analysis of the deposited data

How the results depend on the processing

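0 of the tested members passed in any of the 16 alternatives. With the CON names put back, the log2 fold change lay between -0.58 and -0.40 for miR-132-3p and between -0.85 and -0.62 for miR-212-3p. The limma adjusted p over all 16 and 15 alternatives ran from 0.232 to 1.00 for miR-132-3p and from 0.136 to 1.00 for miR-212-3p. The unadjusted limma p of miR-132-3p was 0.057 without SE replicate 2, 0.088 without SE replicate 3 and 0.095 without CON replicate 1. It stayed under 0.05 without any of the other libraries, and that of miR-212-3p stayed under 0.05 whichever library was left out. miR-132-5p turned to 0.086 with median-of-ratios scaling, 0.074 with quantile normalization and 0.0024 with limma-voom, and ran from -0.23 to 0.28 with 1 library left out. The count of 3 called miRNAs was 3 to 6 with 1 library left out, 6 without CON replicate 2 and 5 without CON replicate 3. The count was 2 with a filter of 50 RPM, 4 with no filter and 4 with a pseudocount of 5 RPM. With the CON names as deposited it was 0, with 2 at an unadjusted p under 0.05, and the values turned to 0.048 for miR-212-3p, to 0.0897 for miR-212-5p (-0.28 with the names put back), to -0.22 for the log2 ratio of the guides and to 0.081 for the log2 arm ratio of miR-132. The cause was not tested for the other changes, and fewer libraries are part of those with 1 left out. Same-numbered libraries had correlations of deviations of -0.42, -0.25 and 0.04, so the numbers were not taken to pair them. The replicate block cannot change a difference of means in this balanced design. With it the count of calls was 3, the limma adjusted p was 0.498 for miR-132-3p, 0.983 for miR-132-5p and 0.316 for miR-212-3p, and miR-212-5p was not fitted with it. The other planned count tests on recovered reads were not run, because the lowest value is read as 2 reads and no single read is listed. limma-voom and the read counts rest on that same reading. Depth limits miR-212-5p most.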
